A study of Mus musculus with 15 samples.

Results

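Dlg1 (ENSMUSG00000022770.17) was followed through every table of the series, as 1 of 55536 annotated genes with deposited counts. The gene lies on the plus strand of chromosome 16, chr16:31663443-31875129 in mm10, and was found by its symbol in GENCODE release M21. It has 15 annotated transcripts among 141862, and 38 of the 138940 rows with a PSI value in both groups (percent spliced in, the fraction of a gene's RNA that carries an exon or uses an end) belong to it. The study asked what costimulation adds to the RNA of antigen-primed CD8+ T cells. OT-I T cells, whose transgenic receptor recognises the ovalbumin peptide SIINFEKL, came from Rag-deficient OT-1 Tg C57BL/6J donors and were transferred into C57BL6/J recipients. The recipients, adult mice of both sexes, received the peptide with rat IgG (Ag, 5 libraries) or with agonist antibodies to OX40 and 4-1BB (Ag+Costim, 5 libraries). Spleen and lymph node CD8+ T cells were sorted at day 4 by the labels, and at a somewhat shorter time by the study's methods, and poly(A) RNA was amplified and sequenced. Both groups share the transfer, the transgenic receptor and the peptide, so the responding cells are 1 receptor specificity rather than a mixed repertoire. The labels do not say whether the libraries of a group came from separate mice, so the p-values below measure the spread between these samples. Naive libraries were not analysed here.

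Dlg1, also called SAP97 or hDlg, is a scaffold of the MAGUK family (membrane-associated guanylate kinases), with an L27 domain, a run of PDZ domains, an SH3 domain, a HOOK stretch and a guanylate kinase-like domain. In epithelia it sets polarity together with Scrib and Lgl proteins. In T cells it gathers at the contact with the antigen-presenting cell and brings Lck, Zap70 and p38 together, which feeds the alternative p38 route to NFAT. Its isoforms differ by small inserts: a proline-rich insert called I1B ahead of the PDZ domains that SH3 domains can bind, and a pair of inserts in the HOOK stretch, I3, which binds proteins of the 4.1 and ERM families, and I2.

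Beside the start sites, 3 short exons carry most of the choice in the coding part, and their sequences are shown because the inclusion values below refer to them. They were read from the GENCODE M21 transcripts (GRCm38, plus strand), in lower case, 5′ to 3′. The 99-base exon, chr16:31771757-31771855, matches I1B. It adds a multiple of 3 bases and lies inside the coding part of 5 annotated transcripts. The 100-base exon, chr16:31846834-31846933, matches I3, and among complete annotated transcripts it belongs to Dlg1-202. The 34-base exon, chr16:31847636-31847669, matches I2. The lengths of the last pair both leave a remainder of 1 on division by 3, so a transcript with either of them keeps the same downstream frame.
99-base exon: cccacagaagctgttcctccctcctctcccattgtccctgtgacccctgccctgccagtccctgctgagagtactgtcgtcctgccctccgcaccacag
100-base exon: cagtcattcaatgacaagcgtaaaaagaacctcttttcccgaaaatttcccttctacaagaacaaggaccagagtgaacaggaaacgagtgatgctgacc
34-base exon: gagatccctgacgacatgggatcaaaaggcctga

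The tandem 3′ ends differ in the length of the 3′ UTR, and the last 30 bases before 5 of them are printed because the largest PSI differences of the gene fall on these ends. Distances are counted from the last coding base, chr16:31871778. Capitals mark the poly(A) signals AATAAA or ATTAAA, searched on the transcript strand only in the last 40 bases of each annotated end, where the 2 motifs may share bases. The ends of Dlg1-205 (chr16:31871817-31871846, 68 bases), Dlg1-204 (chr16:31872232-31872261, 483 bases), Dlg1-201 (chr16:31872655-31872684, 906 bases), Dlg1-202 (chr16:31873317-31873346, 1568 bases) and Dlg1-206 (chr16:31875100-31875129, 3351 bases) read as follows.
Dlg1-205: atctcttgccctgttgtggagtctgtcttc
Dlg1-204: gacttctgctATTAAAgtaatgatttcatt
Dlg1-201: atataaatatatataaaactttctttaact
Dlg1-202: ggagaacagctAATAAActttattgtaaaa
Dlg1-206: tcatctaagAATAAAtatctttttggtcag
Dlg1-205 held neither motif in its 40 bases. Dlg1-204 held ATTAAA 14 bases before its end. AATAAA stood 13 bases before the end of Dlg1-202 and 15 before that of Dlg1-206, and 34 bases before that of Dlg1-201, outside the stretch shown. Of 48034 complete protein-coding transcript ends of the annotation, 59.1% held at least 1 of the 2 motifs in a window of the same length. Beyond the end of Dlg1-202 lie 2 more annotated ends, that of the nonsense-mediated decay transcript Dlg1-209 after 1571 bases and that of Dlg1-203 after 1578 bases. The bases that separate the first and the last of these 3 ends are in capitals in chr16:31873327-31873356.
ends of Dlg1-202 to Dlg1-203: taataaactttattgtaaaaTCCATATGTT

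The libraries held 59598556 to 449401065 estimated counts in Ag and 332290834 to 639070261 in Ag+Costim, and Dlg1 drew between 2233 and 13326 of them. Genes with a count numbered 20714 to 51778 in Ag and 28727 to 30340 in Ag+Costim, with replicates 1, 3 and 4 at the high end of Ag and replicates 2 and 5 at the low end. A list of 10 cell cycle genes summed to 662.8 CPM (counts per 1000000 of the library, scaled with TMM factors) in Ag replicate 1 and 704.7 CPM in Ag replicate 4, to 3557 CPM in Ag replicate 3, and to between 5766 and 7390 CPM in the Ag+Costim libraries and Ag replicates 2 and 5. The CD8 T cell markers were present throughout (6 of 6 listed genes, 2601 to 5079 CPM in Ag and 3363 to 4190 CPM in Ag+Costim), and Cd4 stayed at or under 5.07 CPM. B cell markers summed to 643.0 to 1179 CPM in Ag and 514.8 to 764.4 CPM in Ag+Costim, mostly Ighm. Myeloid markers summed to 35.4 to 94.8 and 65.2 to 139.4 CPM, erythroid markers to 8.23 to 669.2 and 2.09 to 24.7 CPM, and NK markers to 2.09 to 16.4 and 0.473 to 2.16 CPM. The erythroid maximum was Ag replicate 3. The part of these differences in the Dlg1 values was not tested, and in bulk RNA fewer cells of a type and less RNA per cell cannot be told apart.

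At the gene level, the mean of Dlg1 was 20.6 ± 8.84 CPM among the Ag libraries and 21.1 ± 1.20 CPM among those with costimulation (SD, n = 5 each). The 5 Ag libraries stood at 21.3, 16.3, 31.5, 25.5 and 8.28 CPM, and the 5 Ag+Costim libraries at 20.4, 21.7, 22.9, 19.8 and 20.95 CPM. All Ag+Costim values lay inside the range of Ag, from replicate 5 at the bottom to replicate 3 at the top. The log2 fold change, Ag+Costim over Ag, was 0.04 with a standard error of 0.29 (adjusted p = 0.943, edgeR quasi-likelihood test with Benjamini-Hochberg adjustment over 24262 genes), and 2 standard errors around it span -0.54 to 0.61. True differences anywhere in that span are compatible with these libraries, so an equal level in both groups was not established. DESeq2 gave -0.12 with a standard error of 0.33 (adjusted p = 0.780). By edgeR 0 of 24262 genes passed the adjusted threshold of 0.05 (0.0%), while 4501 (18.6%) had an unadjusted p under it, and DESeq2 called 8064 of 36101 genes (22.3%).

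The direction of the Dlg1 difference depends on the scaling. Scaled by DESeq2 size factors, upper quartile or total counts, the edgeR log2 fold change was -0.14, -0.24 and -0.33. With TMM factors, the median log2 fold change was 0.24 over genes of at least 10 CPM, and Dlg1 lay 0.20 under it, as it lay 0.25, 0.26 and 0.33 under the median of the other 3 scalings. What differed more was the spread: the coefficient of variation was 43.0% in Ag and 5.68% in Ag+Costim. Over the 8626 genes at 10 CPM or more the median coefficient of variation in Ag was 32.2%, and 69.6% of these genes varied less than Dlg1 there. 

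**Figure D1:**
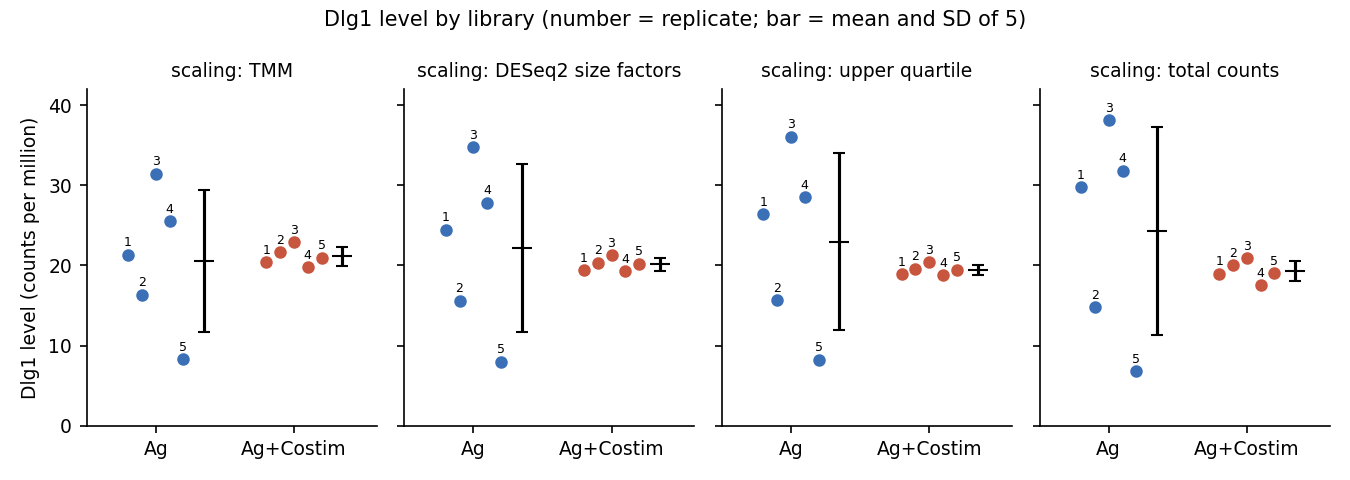
Dlg1 level in CPM (y axis) in the 5 Ag and 5 Ag+Costim libraries, in 1 panel for each of 4 scalings. Points are libraries with their replicate number, and bars are the mean and SD. With TMM scaling the Ag libraries run from 8.28 to 31.5 CPM and the Ag+Costim libraries from 19.8 to 22.9 CPM.

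Per base of transcript, Dlg1 was the most abundant of the Dlg genes. It stood at 10.3 ± 5.86 TPM (count per transcript length, scaled to a sum of 1000000; SD, n = 5) in Ag and 8.20 ± 0.603 TPM in Ag+Costim. In Ag+Costim its paralog Dlg3 was at 2.37 ± 0.720 TPM and Dlg4, the neuronal PSD-95, at 1.08 ± 0.294 TPM, with Dlg5 and Dlg2 under 0.1 TPM (Dlg2 to Dlg5 were named after their values were seen). Of the other MAGUK genes, Mpp6 (36.1 ± 6.15 TPM) and Mpp1 (33.5 ± 4.32 TPM, also named after its value was seen) stood above it. The tight junction scaffold Tjp3 (8.87 ± 1.81 TPM) was within its spread of Dlg1.

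Of the 15 transcripts, 7 are annotated as protein-coding, 5 as retained intron, 2 as targets of nonsense-mediated decay and 1 as a processed transcript. Dlg1-201 and Dlg1-202 together made up 62.1 ± 18.9% of Dlg1 abundance (count divided by transcript length) in the Ag libraries and 85.1 ± 5.36% in the Ag+Costim libraries (SD, n = 5 each). Dlg1-202, of 26 exons, carries the 99-base and the 100-base exon and ends 1568 bases after the last coding base. Dlg1-201, of 25 exons, lacks the 99-base exon, carries the 34-base exon and ends after 906 bases.

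Dlg1-202 took 35.2, 40.6, 29.05, 52.7 and 67.4% of Dlg1 abundance in the 5 Ag libraries and 65.1, 43.0, 35.9, 34.1 and 45.6% in the 5 Ag+Costim libraries. The group means were 45.0 ± 15.3% and 44.7 ± 12.4% (SD, n = 5), and the groups overlapped over most of their range. The transcript's log2 fold change was 0.12 with a standard error of 0.28 (adjusted p = 0.887, edgeR). Dlg1-201 took 30.4, 34.4, 0, 20.5 and 0% in Ag and 15.8, 39.5, 54.3, 57.4 and 34.6% in Ag+Costim. Ag replicates 3 and 5 had no count for it, which allows a share of up to 0.134% of 2233 counts and 0.0977% of 3072 counts (3 counts, counting error only). The mean share was 17.1 ± 16.4% in Ag and 40.3 ± 16.7% in Ag+Costim, and the 2 groups overlapped in the range of 15.8 to 34.4%. Its log2 fold change was 1.24 with a standard error of 1.46 (adjusted p = 0.748, edgeR), and the difference between the mean shares was 23.3 percentage points, beside SDs of 16.4 and 16.7. A count of 0 from an assembly-based estimate can mean that the reads were given to another transcript of the gene.

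Dlg1-206, which has a first exon of its own upstream and the longest 3′ UTR, took 1.19, 4.71, 22.7, 2.17 and 2.26% in Ag and 0.124, 1.12, 1.19, 1.77 and 1.89% in Ag+Costim. Ag replicate 3 alone lifted the Ag mean to 6.60 ± 9.07%, against 1.22 ± 0.702% in Ag+Costim (SD, n = 5). The log2 fold change was -2.82 with a standard error of 1.12 (adjusted p = 0.461, edgeR), and without Ag replicate 3 it was -0.78 (adjusted p = 0.837, edgeR). The retained intron transcript Dlg1-215 took 8.96, 11.7, 28.1, 6.82 and 1.20% in Ag and 7.53, 5.17, 1.11, 1.36 and 3.77% in Ag+Costim, with replicate 3 again the highest. Its log2 fold change was -1.93 with a standard error of 0.96 (adjusted p = 0.471, edgeR), and without Ag replicate 3 it was -0.90 (adjusted p = 0.835, edgeR).

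Among the 10 Dlg1 transcripts that passed the filter on low counts, 0 passed the adjusted threshold by edgeR, where 0.01% of all transcripts did. An unadjusted p under 0.05 by edgeR was reached by 1 of these 10, and by 6478 of all 59949 transcripts tested. DESeq2 called 1 of the 10 Dlg1 transcripts to which it gave an adjusted p, beside 4821 of all 74634 transcripts. The call was the retained intron transcript Dlg1-210 at a log2 fold change of -3.15 (adjusted p = 0.0404, DESeq2). It lay at 0.0809 ± 0.0963 CPM (Ag) and 0.00868 ± 0.00614 CPM (Ag+Costim) and is named because it was the single call. The test of transcript usage, which asks whether the proportions within the gene differ, gave an adjusted p of 1.0 for Dlg1 (unadjusted p = 0.134, edgeR diffSpliceDGE with Simes and Benjamini-Hochberg adjustment). The same test called 0.306% of 10441 genes at an adjusted p under 0.05 and a change of share above 0.1. With limma's diffSplice the adjusted p of Dlg1 was 0.0693 (unadjusted p = 0.00209), also above the threshold.

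**Figure D2:**
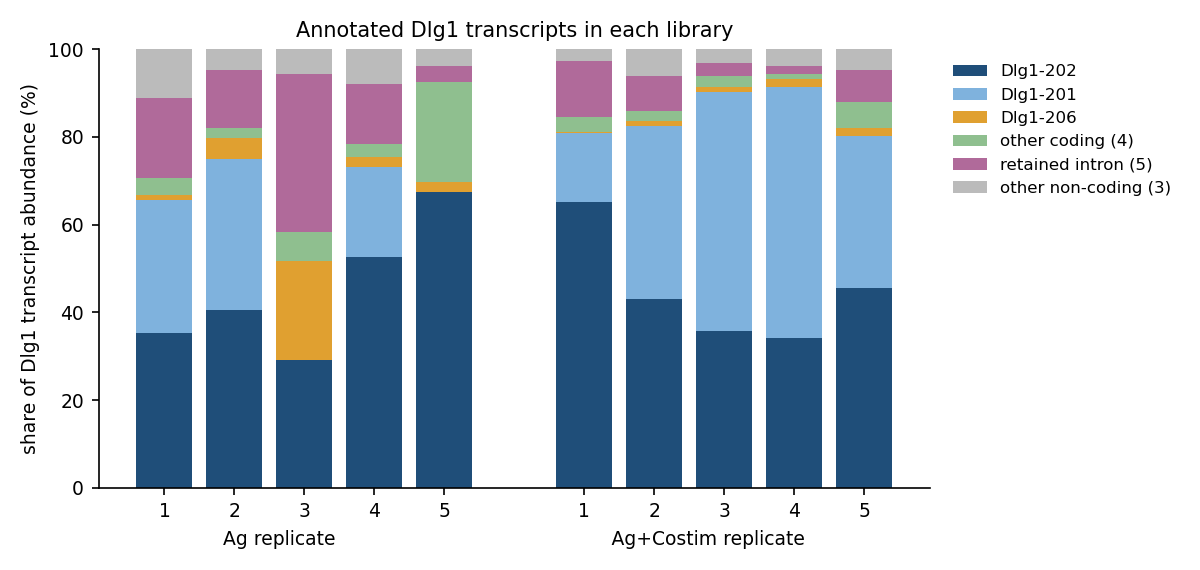
Share of Dlg1 transcript abundance in percent (y axis) for each library (x axis, 5 Ag and 5 Ag+Costim replicates), stacked by transcript. Dlg1-202 and Dlg1-201 fill 80.2 to 91.5% of the Ag+Costim libraries, Dlg1-201 is absent from Ag replicates 3 and 5, and Dlg1-206 with the retained intron transcripts is widest in Ag replicate 3.

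Protein-coding transcripts made up 70.6, 82.1, 58.3, 78.3 and 92.6% of Dlg1 abundance in Ag and 84.6, 85.8, 94.0, 94.4 and 88.1% in Ag+Costim. Ag replicate 5 lay among the Ag+Costim values and the other 4 Ag libraries below them, and the mean difference of 13.0 percentage points had an exact p of 0.0635 (two-sided exact permutation test, adjusted p = 0.226 over 19 shares). Without Ag replicate 3 the difference was 8.47 percentage points. The 5 retained intron transcripts summed to 18.4, 13.3, 36.2, 13.8 and 3.63% in Ag and to 12.8, 8.06, 2.84, 1.83 and 7.22% in Ag+Costim. Overlapping the gene on the plus strand is Gm49705 (chr16:31760966-31766184, annotation type TEC), with 530, 75, 236, 348 and 0 counts in Ag and 35, 36, 101, 55 and 20 in Ag+Costim, and Gm49712 (chr16:31679241-31680609) with at most 69. The snoRNA Gm24879 and the pseudogene Gm49713 lie on the minus strand inside Dlg1 and drew at most 12 and 77 counts. The library kit keeps no strand, so reads of these genes and of Dlg1 introns cannot be told apart.

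Exon inclusion was computed in each library from the transcripts that carry an exon and those that skip it. The 99-base exon was included in 55.1, 57.8, 100, 70.01 and 100% of Dlg1 abundance in Ag and in 79.8, 52.4, 41.2, 38.2 and 60.0% in Ag+Costim. The values of 100% are the libraries without Dlg1-201, the most abundant transcript that skips this exon. The means were 76.6 ± 22.1% and 54.3 ± 16.7% (SD, n = 5), and the difference of -22.25 percentage points had an exact p of 0.119 (two-sided exact permutation test, adjusted p = 0.226). The PSI table, where Whippet counted reads over the exon's own junctions, gave 0.635 in Ag and 0.601 in Ag+Costim, with 1 value per group and no spread.

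For the 100-base exon the transcript counts gave 48.3, 49.3, 51.2, 64.6 and 72.8% in Ag and 77.7, 49.0, 38.2, 35.3 and 52.7% in Ag+Costim. The means, 57.3 ± 10.9% and 50.6 ± 16.8% (SD, n = 5), differed by less than the spread (exact permutation p = 0.500, adjusted p = 0.594). For the 34-base exon the values were 46.8, 49.0, 44.4, 34.4 and 26.3% in Ag and 22.6, 49.6, 60.9, 64.3 and 45.5% in Ag+Costim (exact permutation p = 0.341, adjusted p = 0.499). By PSI the 100-base exon stood at 0.792 and 0.776 and the 34-base exon at 0.212 and 0.207 in Ag and Ag+Costim. The PSI values of the pair summed to 1.004 in Ag and 0.983 in Ag+Costim, so the 2 values were close to complementary in both groups, with the I3 exon the more frequent. Both tables thus gave a smaller difference between the groups than the distance between the tables themselves.

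The PSI of the 100-base exon exceeded that of the 99-base exon by 0.157 in Ag and 0.175 in Ag+Costim. Taken at face value, at least that fraction of Dlg1 RNA would carry the 100-base exon without the 99-base exon, and 0 of the 7 complete annotated transcripts have this combination. The counts, which can be assigned to annotated transcripts, place every copy of the 100-base exon on Dlg1-202, together with the 99-base exon. Of the variants of the 100-base exon, the 104-base form of the processed transcript Dlg1-213 was included in 17.8, 7.75, 16.7, 10.5 and 12.5% of the abundance that could carry it in Ag and 4.79, 6.61, 2.94, 1.499 and 9.18% in Ag+Costim (exact permutation p = 0.0159, adjusted p = 0.113).

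**Figure D3:**
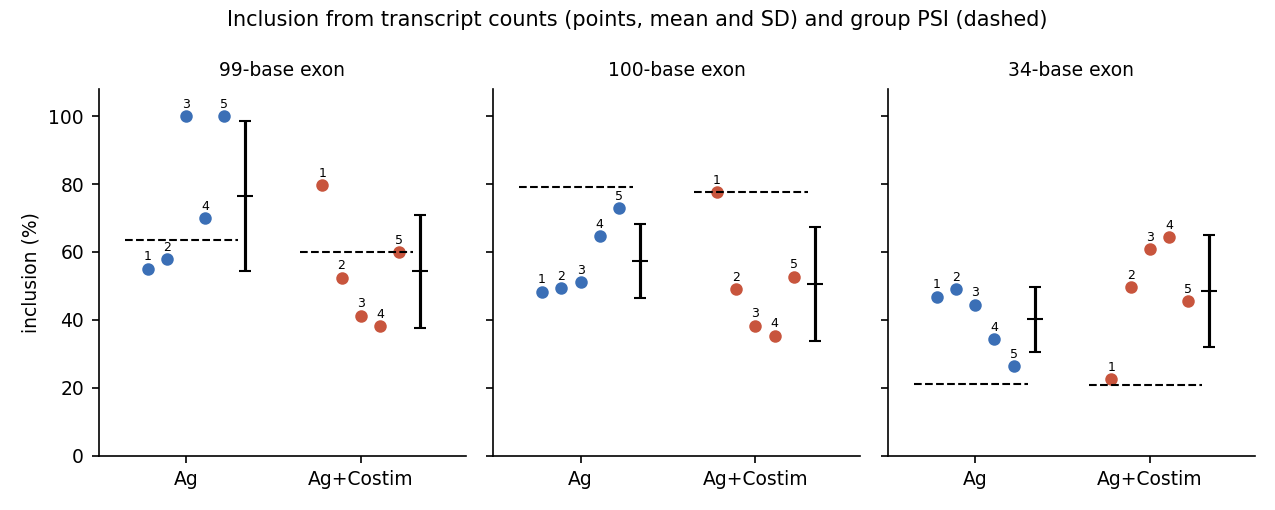
Inclusion in percent (y axis) of the 99-base, 100-base and 34-base exons of Dlg1 in the Ag and Ag+Costim groups. Points are libraries with their replicate number, computed from transcript counts, bars are the mean and SD of 5, and dashed lines are the PSI of the group. For the 100-base exon the PSI of 0.792 in Ag lies above all 5 Ag libraries, which run from 48.3 to 72.8%.

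The remaining exons were nearly constitutive. Of the 26 rows of core exons, 22 had a PSI over 0.95 in Ag, between 0.972 and 0.991, among them the 54-base exon that matches the insert I1A (0.984 and 0.993). In Ag+Costim these 22 lay between 0.977 and 0.996, and 22 of 22 were higher there by 0.0011 to 0.018 (median 0.00698). Of the 87608 core exons of the whole table above 0.95 in Ag, 83.9% were higher in Ag+Costim. The median difference over all 87608, higher or not, was 0.00111. The alternative exon of 21 or 36 bases was rare, the 21-base part having a PSI of 0.0311 (Ag) and 0.0130 (Ag+Costim).

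At the 5′ end, first exons that end at base 31664321 and share a splice site made up 94.2, 94.2, 53.8, 95.7 and 88.4% of complete Dlg1 transcripts in Ag and 98.9, 97.3, 98.0, 97.8 and 97.0% in Ag+Costim. The groups did not overlap, and the mean difference of 12.5 percentage points had the smallest p that 5 against 5 libraries allow (two-sided exact permutation test, p = 0.00794, adjusted p = 0.113 over 19 shares), so it did not pass the adjusted threshold. Without Ag replicate 3 the difference was 4.68 percentage points (adjusted p = 0.151, exact permutation test). Without Ag replicate 2 it was 14.8 (adjusted p = 0.0377, exact permutation test), and the 3 shares of Dlg1-204 (its first exon, its 36-base exon and its end) passed as well. These 3 shares come from 1 transcript and are not separate measurements. Over 19 shares the smallest p passes the adjustment only where several shares tie at it, as these did, and 1 share alone could not pass. The complement of the main first exon was the upstream first exon of Dlg1-206, given above, and the internal first exon of Dlg1-204, chr16:31754350-31755016. There that transcript's coding part also starts, downstream of the exons that open the longer forms. Dlg1-204 was used by 4.18, 0.0798, 6.24, 1.59 and 9.18% in Ag and 0.971, 1.40, 0.727, 0.355 and 0.793% in Ag+Costim (exact permutation p = 0.0952, adjusted p = 0.226). In the PSI table this internal first exon had 0.0836 in Ag and 0.0145 in Ag+Costim, a difference of -0.069. Of the 4 tandem start segments, 1 differed by more than 0.05, chr16:31664039-31664149, at 0.106 in Ag and 0.0520 in Ag+Costim.

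The largest PSI differences of the gene were in the tandem 3′ ends. In all, 6 of 38 Dlg1 rows differed by more than 0.05, against 11.9% of all rows of the table, and 4 of them were among the 6 tandem ends, a class in which 43.0% of all rows differed as much. The PSI table has 1 value per group, so none of these differences has a replicate check. The shortest end, 68 bases after the last coding base, had 0.358 in Ag and 0.0917 in Ag+Costim, a difference of -0.266 that 1.68% of all rows matched or exceeded in size. The end at 483 bases had 0.0424 and 0.201, and the end at 906 bases had 0.00516 and 0.0392.

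The distal end at 1568 bases, that of Dlg1-202, had 0.0157 in Ag and 0.615 in Ag+Costim, a difference of 0.599 that 0.23% of all rows matched or exceeded. The next end of the table, at 1572 bases, had 0.582 in Ag and 0.0554 in Ag+Costim, a difference of -0.526. These 2 ends lie 4 bases apart: the first is the last lower-case base of the stretch printed above, and the second lies within its capitals. The end at 1572 bases coincides with no annotated end of the gene, the nearest being that of Dlg1-209 at 1571 bases. The last end of the table, at 1578 bases, had 0.00318 and 0.00123. Summed over the 3 ends, which span 11 bases, the distal PSI came to 0.601 for Ag and 0.672 for Ag+Costim, a difference of 0.071. What remained after merging was the exchange of the end at 68 bases for those at 483 bases and beyond, and the mean distance from the last coding base to the end was 988 bases in Ag and 1188 bases in Ag+Costim.

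The transcript counts placed the ends differently. From them the end of Dlg1-201 at 906 bases took 41.7, 41.8, 0, 25.2 and 0% in Ag and 18.9, 45.0, 57.96, 59.5 and 39.97% in Ag+Costim (exact permutation p = 0.119, adjusted p = 0.226), whereas its PSI was at most 0.0392. The end at 68 bases, that of Dlg1-205, took at most 0.0747% of any library. The 3 ends of 1568 to 1578 bases took 52.5, 52.4, 53.8, 70.5 and 88.4% in Ag and 80.0, 52.3, 40.05, 38.3 and 57.1% in Ag+Costim, with means of 63.5 ± 15.8% and 53.5 ± 16.8% (SD, n = 5, exact permutation p = 0.325, adjusted p = 0.499). The mean distance from the last coding base to the end was 1565 ± 372 bases in Ag and 1290 ± 98.7 bases in Ag+Costim (SD, n = 5, exact permutation p = 0.0794). By counts the mean was thus 275 bases shorter in Ag+Costim and by PSI 200 bases longer, and the means do not cover the same ends. Without Ag replicate 3 by counts the mean was 114 bases shorter (exact permutation p = 0.135), and without Dlg1-206, whose end is not in the PSI table, 102 bases shorter (exact permutation p = 0.159), both chosen after seeing the data. In the annotation the end at 906 bases occurs in Dlg1-201 alone, so its share and the skipping of the 99-base exon come from the same transcript and are not separate measurements. The end of Dlg1-206 at 3351 bases has no row in the PSI table.

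**Figure D4:**
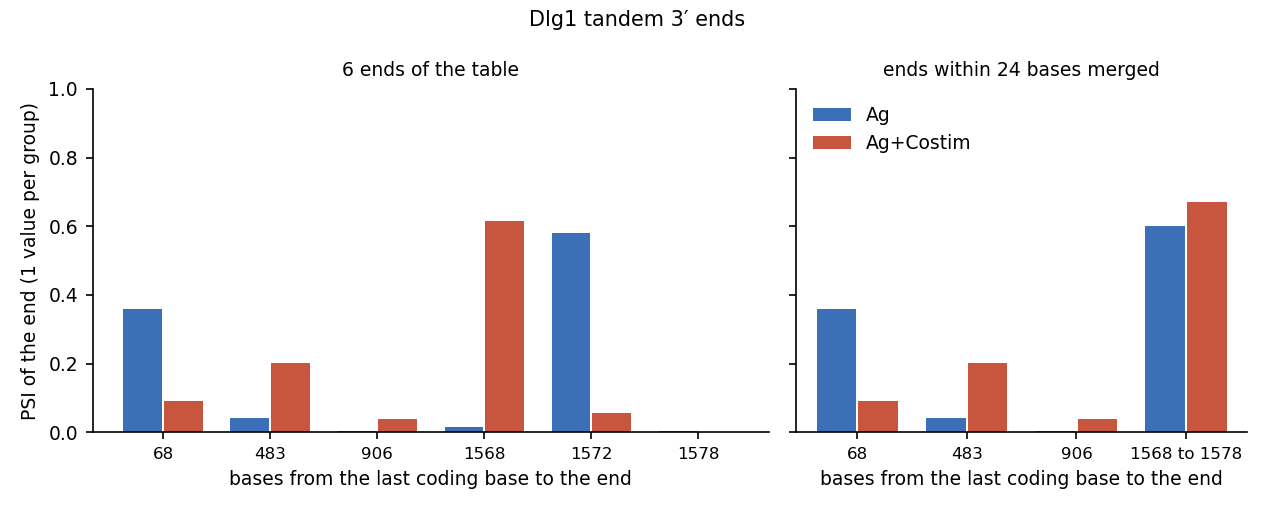
PSI of the tandem 3′ ends of Dlg1 (y axis, 1 value per group, no replicates) against the number of bases from the last coding base (x axis), for the 6 ends of the table and after merging ends within 24 bases. The end at 1568 bases is at 0.615 in Ag+Costim and the end at 1572 bases at 0.582 in Ag, and after merging the distal end is at 0.601 and 0.672.

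The genes around Dlg1 were described by lists, and differences are log2 fold changes of CPM, Ag+Costim over Ag. Of 21 MAGUK genes tested by edgeR, Dlg1 among them, 0 passed the adjusted threshold, and 1 was higher and 2 were lower at an unadjusted p under 0.05 (18.6% of all genes). DESeq2, which also tested Card14, called 4 of 22, beside 22.3% of all genes. The calls were 1 higher (Mpp2) and 3 lower (Cask, Magi2 and Card14, each under 1 CPM as a mean over the 10 libraries). The median log2 fold change of the 21 genes was -0.27, beside -0.32 over all genes tested and 0.24 over genes at 10 CPM or more. Mpp6 (0.60, standard error 0.48) and Tjp3 (0.36, standard error 0.31) were among the members at 10 CPM or more with the largest differences. Their adjusted p values, 0.436 and 0.478 by edgeR, missed the threshold.

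Of 17 tested polarity partners, 0 passed by edgeR, 2 were higher and 3 lower at an unadjusted p under 0.05, and DESeq2 called Llgl1 and Pard6b higher and Pard6g and Lin7a lower, 4 of 17 beside 22.3% of all genes. Scrib, the partner that shares the Dlg1 polarity complex, stood at 10.38 ± 1.99 CPM (Ag) and 10.36 ± 1.29 CPM (Ag+Costim). Llgl1, the third member of that complex, was at 46.0 ± 5.78 and 68.0 ± 6.05 CPM, with no overlap between the groups and a log2 fold change of 0.56 (adjusted p = 0.153, edgeR), and was called by DESeq2 at 0.44 (adjusted p = 0.00143, DESeq2). Gpsm2, which orients the mitotic spindle, had a log2 fold change of 1.06 (adjusted p = 0.272, edgeR) and Patj, a tight junction scaffold, of -1.50 (adjusted p = 0.287, edgeR). Of the 10 cell cycle genes, whose summed level in each library is given above, 10 had a positive log2 fold change and 0 passed by edgeR. Their median was 0.89, beside 0.24 over genes at 10 CPM or more and -0.32 over all genes tested. Without Ag replicates 1, 3 and 4, 6 of 10 were positive, with a median of 0.068 beside 0.22 over all genes tested. Without Ag replicates 2 and 5, 10 of 10 were positive, with a median of 2.13 beside -1.69. Both settings were chosen after seeing the data. DESeq2 called Mki67, a marker of cycling cells, at 1.012 (adjusted p = 0.0310, DESeq2), 1 of 10 beside 22.3% of all genes. In edgeR, Mki67, Top2a, which untangles DNA, and Rrm2, which makes deoxyribonucleotides, had log2 fold changes of 1.10, 0.98 and 0.96.

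Of 25 T cell signalling proteins that bind Dlg1 or act after it, 0 passed by edgeR, 8 were higher and 2 lower at an unadjusted p under 0.05, and DESeq2 called 5 higher (among them Was, Msn, Rdx and Epb41) and 2 lower (Wasl and Akap5), 7 of 25 beside 22.3% of all genes, where 18.6% of all genes had an unadjusted p under 0.05. The genes that DESeq2 called and that are given without values are named because the counts are small. The median log2 fold change of the list was 0.27, beside -0.32 over all genes tested and 0.24 over genes at 10 CPM or more. Lck, the kinase that phosphorylates the receptor, stood at 1612 ± 335 and 1804 ± 40.6 CPM (SD, n = 5), with a log2 fold change of 0.16 that was negative with total counts and upper quartile scaling. Zap70, which Lck activates, was at 204.2 ± 43.3 and 247.9 ± 5.21 CPM, and Mapk14, the p38 kinase of the alternative route, at 59.4 ± 11.3 and 71.7 ± 12.0 CPM, negative with total counts scaling. The log2 fold changes of Zap70 and Mapk14 were 0.28 and 0.27 (adjusted p = 0.314 and 0.338, edgeR). The 3 members at 10 CPM or more with the largest differences were Map2k3, an activator of p38, at 0.66 (adjusted p = 0.345, edgeR), Was, the actin regulator mutated in Wiskott-Aldrich syndrome, at 0.66 (adjusted p = 0.154, edgeR), and Rdx, an ERM protein, at 0.64 (adjusted p = 0.242, edgeR). The DESeq2 adjusted p of Was, Rdx and Map2k3 was 0.0418, 0.0471 and 0.227. Without Ag replicates 2 and 5, a choice made after seeing the data, edgeR called 9 MAGUK genes, 12 polarity partners, 15 T cell signalling proteins and 10 cell cycle genes, among 16322 of 33480 genes. Without Ag replicates 1, 3 and 4 it called 3, 3, 7 and 0, among 2752 of 25394 genes. Tardbp, the RNA-binding protein that the study followed as a splicing regulator, stood at 110.6 ± 35.7 CPM (Ag) and 157.9 ± 15.6 CPM (Ag+Costim), with a log2 fold change of 0.51 and a standard error of 0.21 (adjusted p = 0.261, edgeR).

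The 5 genes at 10 CPM or more whose log2 CPM was most like that of Dlg1 over the 10 libraries were Usp40, Ppfibp1, R3hdm2, Rps6ka5 and Shld2. Their Pearson correlations with Dlg1 ran from 0.945 to 0.955, against a median of -0.312 over 8625 genes, and the 10 libraries share the depth differences given above. Within the 5 Ag libraries they ran from 0.961 to 0.992, and within the 5 Ag+Costim libraries from -0.303 to 0.619, so the likeness came from the Ag libraries, where replicate 5 was the lowest for each of these genes and for Dlg1.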

How the data were processed

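Poly(A) RNA of 5 Ag and 5 Ag+Costim libraries was compared. Per the labels and the study's methods, the authors amplified cDNA with SMART-Seq v4, aligned reads to mm10 (the processing notes name HISAT2 2.1.0, SAMtools 1.9, StringTie 2.1.0, R 4.0.5 and DESeq2 1.30.1) and deposited estimated counts per gene and transcript, rounded to whole numbers. The deposited PSI fractions came from Whippet, with 1 value per group from combined libraries. Columns with the authors' own differences and probabilities were not used. Identifiers outside GENCODE M21 (26345 entries, 0.046 to 0.308% of a library) were left out.

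Counts were tested with edgeR 4.0.16 (R 4.3.3; TMM, filterByExpr by group, robust quasi-likelihood fit; Benjamini-Hochberg threshold 0.05) and diffSpliceDGE, with limma 3.58.1 and DESeq2 1.42.0 as alternatives. The fits were run on simulated data in which the spread between libraries was capped, so that run does not speak to power or error at the spread of these libraries. Per-library shares used count per transcript length and two-sided exact permutation tests over 252 assignments, adjusted over 19 shares. Limits for a count of 0 cover counting error only.

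Named were transcripts with a mean share of 5% or more in either group, exons, first exons and ends used by 5 to 95%, PSI rows differing by over 0.05, the 5 most correlated genes at 10 CPM or more (log2 CPM, prior count 1), 3 genes per list at 10 CPM or more with the largest log2 fold change, Lck, Zap70, Mapk14, Scrib, overlapping genes and Tardbp. The gene and the lists were chosen with earlier results of these data known. Some list members that the rule names are not reported here. Inadl of the polarity list was not in the table used here. The libraries were treated as unpaired, since the labels state no pairing by replicate number and correlations between libraries showed none. Alternatives were other scalings, tools, filters, a replicate block, leaving out each library, and merging ends within 24 bases.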

Additional observations from a re-analysis of the deposited data

Results flagged for a closer look

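In 12 Dlg1 values tested in both groups (24 tests, of which chance flags about 1 in 20), 2 had a library far from the other 4 of its group. The share of Dlg1-206 was 22.7% in Ag replicate 3 and 4.71% in the next highest Ag library, a gap of 0.836 of the group's range against a critical value of 0.71. The share of first exons ending at base 31664321 was 53.8% in Ag replicate 3 and 88.4% in the next lowest Ag library, a gap of 0.824 of the range. Dlg1-206 does not use that first exon, so both values describe the same library and partly the same counts. Ag replicate 3 had the fewest counts, 59598556, and the highest summed erythroid markers, 669.2 CPM. Their part in both values was not tested.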

How the results depend on the processing

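The gene-level log2 fold change of Dlg1, 0.04, was negative with DESeq2 (-0.12), limma voom with quality weights (-0.15), DESeq2 size factors (-0.14), total counts (-0.33), upper quartile (-0.24) and without Ag replicates 2 and 5 (-0.18). It was 0.48 without a filter and 0.80 without Ag replicates 1, 3 and 4 (adjusted p = 0.0728, edgeR), ran from -0.14 (without Ag replicate 5) to 0.24 when 1 library was left out, and passed the threshold in none of these settings. Genes past the threshold numbered 0 by edgeR, 8064 by DESeq2, 12632 by limma, 16322 without Ag replicates 2 and 5 and 2752 without Ag replicates 1, 3 and 4. The corresponding transcripts numbered 6 by edgeR and 4821 by DESeq2, and genes in the usage test 45 by edgeR and 247 by limma. The cause was not tested.

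Members called in the MAGUK, polarity, T cell signalling and cell cycle lists, 0 in each by edgeR (0 to 0 with 1 library left out), were 4, 4, 7 and 1 by DESeq2, 8, 11, 16 and 10 by limma, 9, 12, 15 and 10 without Ag replicates 2 and 5, and 3, 3 and 7 in the first 3 lists without Ag replicates 1, 3 and 4. The lists had 22, 17, 25 and 10 genes with counts. Over all genes, DESeq2 called 8064 of 36101 and limma 12632 of 24262. The settings that leave out several Ag libraries called 16322 of 33480 genes (without 2 and 5) and 2752 of 25394 (without 1, 3 and 4). Dlg1 transcripts called were 0, 1 by DESeq2 and 2 without Ag replicates 2 and 5 (Dlg1-204 and Dlg1-210), where Dlg1-202 was at -0.046. Over all transcripts, DESeq2 called 4821 of 74634, and edgeR without Ag replicates 2 and 5 called 16734 of 76019. Without Ag replicates 1, 3 and 4 the log2 fold changes of Mpp6, Tjp3, Patj, Lck and Map2k3 turned to -0.13, -0.022, 1.48, -0.054 and -0.062. Lck was -0.092 with total counts and -0.065 with upper quartile, and Mapk14 -0.011 with total counts. Scrib, at -0.00, was 0.19 with limma, 0.33 without a filter, 0.0091 with the replicate block, 0.32 without Ag replicates 2 and 5, and -0.070 to 0.12 with 1 library left out.

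The share of the main first exon differed by 4.68 to 15.2 percentage points with 1 library left out. It passed the adjusted threshold only without Ag replicate 2 (14.8), as did 3 shares of Dlg1-204, which come from 1 transcript. The adjustment was passed only because these shares tied at the smallest p. The share of coding transcripts differed by 8.47 to 17.0 points. The PSI difference at the end of Dlg1-202, 0.599, was 0.0710 after merging ends within 24 bases, chosen after seeing the data, as were both settings that leave out several Ag libraries. Of the 5 genes most like Dlg1, 0 were among the first 5 by Spearman correlation and 1 by deviations from group means. Same-numbered libraries correlated at -0.0909 to 0.107 and others at -0.120 to 0.104, and 1 of 5 Ag libraries correlated best with its own number. No pairing by number was seen, but correlations this weak cannot exclude one, and the labels state none. With the replicate block the Dlg1 log2 fold change was 0.16, and 0 genes and 0 transcripts passed by edgeR. Within replicate blocks the permutation test of the shares has too few assignments to reach 0.05, so it could call no share. Dlg1 drew 2233 counts in Ag replicate 3, the shallowest library, which limits its shares most.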

Other observations

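Close tandem ends like those of Dlg1 occurred elsewhere in the PSI table. Its 14545 tandem end rows formed 11239 ends once rows within 24 bases of the next were merged, and 2710 of these held 2 or more rows. Of 1432 such merged ends with at least 1 row that differed by more than 0.05, 1024 (71.5%) differed by less than 0.05 after merging. Rows or merged ends past 0.05 numbered 6257 before merging and 4054 after it.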
